A study of Oryza sativa with 6 samples.

Results

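The genes described here act in the phosphate signalling pathway of rice: the SPX genes *SPX1* to *SPX4*, the PHO1 genes *PHO1-1* to *PHO1-3*, *PHO2*, and the MYB transcription factor genes *PHR1* and *PHR2*. Their probe sets were found by gene name, with the Os prefix of the rice names dropped. Of the 10 genes, 8 are paired with at least 1 probe set of the array, out of 17905 genes so paired. They have 12 probe sets, out of 57258 that are not controls. *PHO1-1* and *PHO2* had no probe set paired with them in the tables used here and have no value.

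RNA came from stem bases of 7-day-old rice seedlings, the zone in which crown root primordia differentiate, and was hybridised to 6 GeneChip Rice Genome Arrays. The *crl1* samples are seedlings of the *crown rootless1* mutant, in which the gene of the LOB-domain transcription factor CRL1 is mutated and which forms no crown roots, and the WT samples are wild-type seedlings. Both are of *Oryza sativa* cultivar Taichung 65 and were grown upright on diluted MS agar at 26°C under 12 h light and 12 h dark, and the labels name no hormone or nutrient treatment. Each genotype has 3 arrays, each from a pool of stem bases, and the arrays are numbered by experiment, 1 *crl1* and 1 WT array in each of experiments 1, 2 and 3. A stem base holds several tissues, so that fewer cells of a type and less RNA per cell cannot be told apart. No probe set could be matched to *CRL1* itself.

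Phosphate is taken up by roots through transporters of the PHT1 family and loaded into the xylem by PHO1 proteins. When phosphate is scarce, PHR proteins bind the promoters of phosphate starvation genes and activate them, and several SPX genes are among these targets. SPX proteins sense the phosphate status of the cell through inositol pyrophosphates and, when phosphate is plentiful, bind PHR proteins and keep them from acting. PHO2, a ubiquitin-conjugating enzyme, removes PHO1 and transporter proteins. In rice, PHR2 is the best studied activator and PHO1-2 the PHO1 protein known for moving phosphate from root to shoot.

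Values below are MAS5 signals, a linear brightness of each probe set after every array was scaled to the same mean. A signal was not read as an amount of RNA relative to another probe set, because each has its own probes. Sums over marker probe sets follow the brightest of them, and brighter or dimmer refers to the signal alone. The median signal of an array was between 12.5 and 16.6 in *crl1* and between 12.7 and 15.7 in WT, and the highest signal lay between 5761 and 18869 in *crl1* and between 5201 and 16698 in WT, with experiment 3 lowest in both genotypes. Of markers of the sampled tissue, 6 probe sets of shoot meristem KNOX genes summed to 1959 to 2736 in *crl1* and 1843 to 2431 in WT. *OSH1*, the KNOX gene that marks the shoot meristem, was bright on all arrays, while both probe sets of *OSH43* had a geometric mean below the signal minimum used for testing. The 8 root probe sets, among them those of the silicon transporter gene *LSI1*, summed to 894 to 1272 in *crl1* and 1311 to 1486 in WT, so that the sums did not overlap. *LSI1* makes up most of the sum and was mixed between pairs, with ratios of 0.977, 0.644 and 1.097. The iron-chelator synthesis gene *NAS1* and the silicon transporter gene *LSI2* had log2 fold changes of -1.45 and -0.94 and the ammonium transporter gene *AMT1-2* one of 0.68, each on the same side in all 3 pairs. The root markers *PIN2* and 1 probe set of *CASP1* were also lower in *crl1* in each pair, at -0.70 and -0.80. The other tested probe set of *CASP1* was mixed. None of the 7 root probe sets that were tested had an adjusted p under 0.05. *WOX11*, a gene of crown root growth, had signals of 114 to 198 in *crl1* and 80.6 to 98.2 in WT, also without passing the test. The part of these markers in the results below was not tested.

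In *crl1* against WT, none of the phosphate signalling genes passed the test. Genotypes were compared by limma on log2 signals with the experiment number as a block, over 25045 probe sets whose geometric mean signal was at least 20, and p-values were adjusted over all of them by the Benjamini-Hochberg method. This minimum was passed by 11 of the 12 probe sets, which cover all 8 genes. Of the 11, 0 had an adjusted p under 0.05, and 0.651% of all tested probe sets did. At an unadjusted p under 0.05 there was 1 of the 11, against 9.76% of all tested probe sets. The log2 fold change was negative for 7 of the 11 and for 49.3% of all tested probe sets. The median log2 fold change of the 11 was -0.04 and that of all tested probe sets was 0.0034. In size, the median log2 fold change was 0.16 for the 11 and 0.13 for all.

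**Figure D1:**
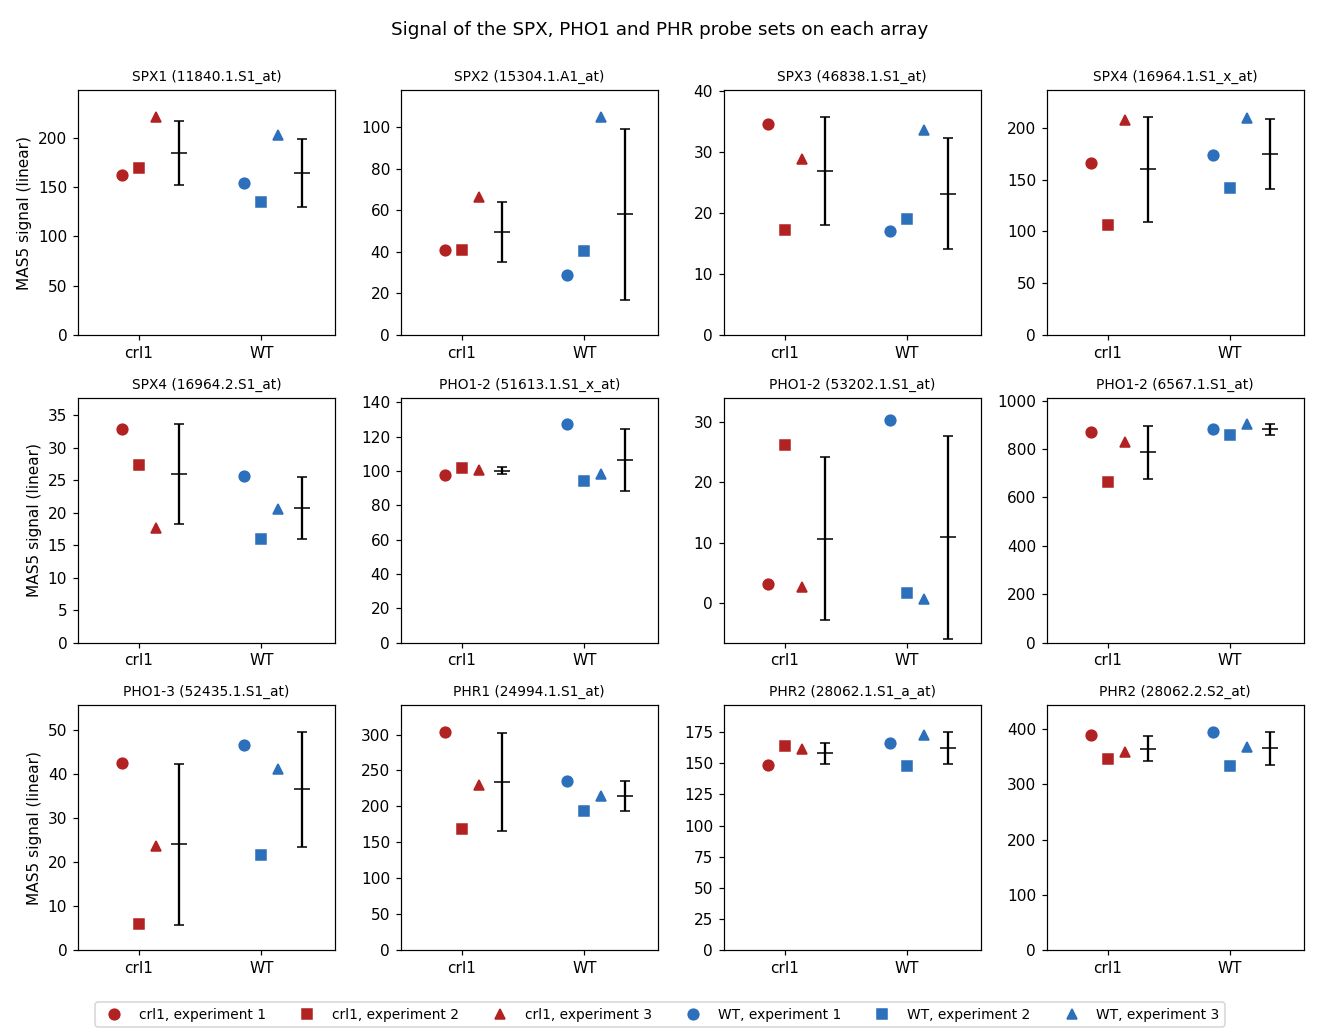
MAS5 signal (linear axis) of the 12 probe sets of *SPX*, *PHO1* and *PHR* genes on each array, *crl1* left and WT right, with a marker for each experiment and a black bar for the mean ± SD (n = 3 arrays). In every panel the *crl1* and WT arrays overlap, and for *SPX1*, *SPX2* and the brighter probe set of *SPX4* the triangles of experiment 3 lie above the other 4 points.

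*SPX1*, a repressor that binds PHR2 in the nucleus, had signals of 162, 169.7 and 222 in *crl1* experiments 1, 2 and 3, against 155, 135 and 203 in WT. The *crl1* array was the higher in each of the 3 pairs, by 1.05, 1.26 and 1.09 times, yet the genotypes overlapped because experiment 3 was the highest in both. The means were 185 ± 32.3 in *crl1* and 164 ± 34.7 in WT (SD, n = 3 arrays each). The log2 fold change was 0.18 (95% confidence interval, CI, -0.10 to 0.45, limma adjusted p = 0.704).

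*SPX2*, a close relative of *SPX1* that also restrains PHR2, had signals of 41.0, 41.1 and 66.2 in *crl1*, against 28.7, 40.2 and 105 in WT. Within pairs, *crl1* stood at 1.43, 1.02 and 0.631 times WT, so that the direction differed between experiments, and the array with the highest signal was WT of experiment 3. The means were 49.4 ± 14.6 in *crl1* and 58.0 ± 41.1 in WT (SD, n = 3 arrays each). On the log2 scale the fold change was -0.04, with a wide interval (95% CI -0.61 to 0.52, limma adjusted p = 0.983).

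*SPX3*, a member whose transcript is induced by phosphate starvation in rice, was dim, with signals of 34.7, 17.3 and 28.9 in *crl1* and 17.0, 19.0 and 33.7 in WT. Only the first pair stood apart, with *crl1* at 2.04 times WT, and the others had ratios of 0.911 and 0.858. The log2 fold change was 0.22 (95% CI -0.54 to 0.99, limma adjusted p = 0.893).

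*SPX4*, whose protein holds PHR2 outside the nucleus, has 2 probe sets, which disagreed. The brighter one carries the array's mark for probes that can also bind other transcripts, and had signals of 166, 106 and 208 in *crl1* and 174, 142 and 209 in WT. All 3 pairs were lower in *crl1*, with ratios of 0.953, 0.752 and 0.993 (log2 fold change -0.16, 95% CI -0.46 to 0.13, limma adjusted p = 0.758). The dimmer one had 32.8, 27.4 and 17.6 in *crl1* and 25.6, 16.02 and 20.6 in WT, with ratios above 1 in experiments 1 and 2 only (log2 fold change 0.31, 95% CI -0.42 to 1.03, limma adjusted p = 0.828). Over the 6 arrays the log2 signals of these probe sets had a Pearson r of -0.29, so that the direction of *SPX4* is uncertain.

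Among the phosphate exporters, *PHO1-2* has 3 probe sets, of which the brightest had signals of 871, 663 and 828 in *crl1* and 884, 858 and 902 in WT. The *crl1* array was lower in each pair, by little in experiment 1 and most in experiment 2, where the ratio was 0.773. The means were 787 ± 110 in *crl1* and 881 ± 22.4 in WT (SD, n = 3 arrays each), and the difference did not pass the test (log2 fold change -0.17, 95% CI -0.39 to 0.05, limma adjusted p = 0.634). A further probe set, marked as open to cross-hybridisation, had 97.8, 102 and 101 in *crl1* and 127, 94.3 and 98.2 in WT, so that only WT of experiment 1 stood apart (log2 fold change -0.08, 95% CI -0.43 to 0.27, limma adjusted p = 0.93). Over the 6 arrays its log2 signals had a Pearson r of 0.11 with those of the brightest probe set. The lower signal of *crl1* in each pair thus rests on the brightest probe set alone. The remaining probe set, which was below the minimum and not tested, had 3.15, 26.2 and 2.65 in *crl1* and 30.4, 1.64 and 0.739 in WT. Its ratios ran from 0.104 to 15.997 between pairs, at signals near the bottom of the array's range.

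*PHO1-3*, a paralog of *PHO1-2*, had the largest genotype difference of the 11 probe sets. Its signals were 42.3, 5.94 and 23.7 in *crl1*, against 46.6, 21.7 and 41.1 in WT. In every experiment *crl1* was the lower array, with ratios of 0.908, 0.274 and 0.575, but the genotypes overlapped, because *crl1* of experiment 1 was brighter than 2 of the WT arrays. The means were 24.0 ± 18.2 in *crl1* and 36.5 ± 13.1 in WT (SD, n = 3 arrays each). The log2 fold change was -0.93 (95% CI -1.75 to -0.12), with an unadjusted p of 0.0286 that did not hold after adjustment (limma adjusted p = 0.436). Without experiment 2 it was -0.47 (limma adjusted p = 0.58), and with a pseudocount of 16, which damps dim signals, -0.47 (limma adjusted p = 0.433).

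The genes of the PHR transcription factors that SPX proteins bind had small log2 fold changes, with intervals on both sides of no change. *PHR1* had signals of 304, 168 and 229 in *crl1* and 235, 194 and 215 in WT, with *crl1* of experiment 1 the highest and *crl1* of experiment 2 the lowest array (log2 fold change 0.09, 95% CI -0.21 to 0.38, limma adjusted p = 0.897). *PHR2* had signals of 389, 345 and 359 in *crl1* and 394, 334 and 367 in WT through its brighter probe set. Each pair differed by a few percent, with ratios of 0.988, 1.03 and 0.977, and the means were 364 ± 22.7 in *crl1* and 365 ± 30.3 in WT (SD, n = 3 arrays each). The log2 fold change was -0.0012 with the narrowest interval of the 11 (95% CI -0.22 to 0.22, limma adjusted p = 0.997). The other *PHR2* probe set stood at 149, 164 and 161 in *crl1* and 167, 147 and 173 in WT (log2 fold change -0.04, 95% CI -0.32 to 0.25, limma adjusted p = 0.963).

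**Figure D2:**
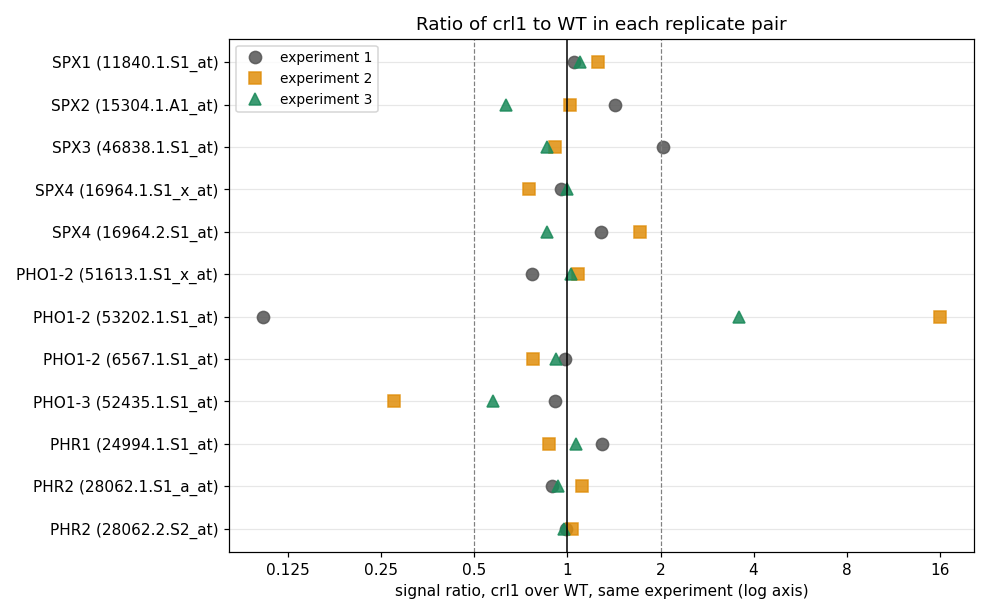
Signal ratio of *crl1* to WT within each experiment (log axis, 1 marker per experiment) for the 12 probe sets, with a solid line at 1 and dashed lines at 0.5 and 2. *SPX1* lies above 1 and *PHO1-3*, 1 probe set of *SPX4* and the brightest of *PHO1-2* lie below 1 in all 3 pairs, while the untested probe set of *PHO1-2* runs from 0.104 to 15.997.

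Read by pairs, 4 of the 11 tested probe sets lay on the same side of 1 in all 3 experiments, and 31.2% of all tested probe sets did so. Of these, 1 was higher and 3 were lower in *crl1*, against 16% of all tested probe sets higher and 15.2% lower. The study took a gene as changed when the ratio passed 2 or fell below 0.5 in every replicate. It also asked for a Present call and a small p, and its ratios came from a MAS5 comparison of arrays. Here the ratio is the quotient of the deposited signals, so the shares are not the study's own. By this ratio alone, 0 of the 11 and 0.228% of all tested probe sets passed these limits. Nor did the *crl1* and WT arrays separate without overlap for any of the 11, which 7.29% of all tested probe sets did. The 4 probe sets with the lowest signal on the *crl1* array of experiment 2 belonged to *SPX4*, *PHO1-2*, *PHO1-3* and *PHR1*, and 18.5% of all tested probe sets were lowest on that array.

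Experiments, unlike genotypes, gave SPX genes that passed the test. In experiment 3 against the mean of experiments 1 and 2, with genotype as a term of the same fit, *SPX1*, *SPX2* and the brighter probe set of *SPX4* were higher. These 3 of 11 compare with 24.3% of all tested probe sets that passed the same test in either direction with 11.7% higher and 12.6% lower. At an unadjusted p under 0.05 the count was also 3 of 11, against 36.9% of all tested probe sets. Both arrays of experiment 3 lay above the other 4 for 3 of the 11 and for 19.2% of all tested probe sets, and below them for 0 of the 11 and for 22.9%. The counts in either direction are thus not above those of the whole array by much, and are no result about these genes as a group. An experiment is 1 *crl1* and 1 WT array, so these differences rest on 2 arrays against 4. Marker genes also differed in experiment 3, those of the sampled tissue among them. Both *OSH1* probe sets were lower, at 0.693 and 0.801 times (limma adjusted p = 0.0033 and 0.046). The shoot meristem genes *OSH6* and *OSH71* did not pass (limma adjusted p = 0.718 and 0.41). The 6 leaf and photosynthesis probe sets summed to 8031 in *crl1* and 8256 in WT of experiment 3, and to between 14982 and 16819 on the other 4 arrays. Most of each sum came from the light-harvesting gene *CAB2R*. Both its probe sets were lower, at 0.465 and 0.464 times (limma adjusted p = 9.9e-05 and 9.4e-05), while the brightest probe set of the Rubisco small subunit gene *RBCS* was higher at 1.71 times (0.00115) and *NAS1* at 4.31 times (0.00212). The highest signal of an array was also lowest in experiment 3, as given above. The part of these markers and of the array range in the differences of the SPX genes was not tested.

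*SPX2* had the largest such difference of the 11, at 2.23 times (log2 difference 1.16, standard error 0.27, limma adjusted p = 0.0125). Its signals in experiment 3 were 66.2 in *crl1* and 105 in WT, above the other 4 arrays, of which the highest was 41.1. *SPX1* was 1.37 times higher in experiment 3 (log2 difference 0.45, standard error 0.13, limma adjusted p = 0.0313), with both arrays over 200 and the other 4 no higher than 169.7. That call ended without the signal minimum (adjusted p = 0.0509), with quantile normalization (0.061), without the mean-variance trend (0.077) and without the genotype term (0.0543).

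For *SPX4* the brighter probe set was 1.44 times higher in experiment 3 (log2 difference 0.53, standard error 0.14, limma adjusted p = 0.0227). Its call ended without experiment 2 (log2 difference 0.29, adjusted p = 0.127) and without the trend (adjusted p = 0.0712). The dimmer *SPX4* probe set had a log2 difference of -0.37 (standard error 0.34, limma adjusted p = 0.465), and the mean of both one of 0.08 (adjusted p = 0.799). For *SPX3* the log2 difference was 0.57 and did not pass (95% CI -0.23 to 1.38, limma adjusted p = 0.281).

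The PHR and PHO1 genes did not pass this comparison. *PHR1* had a log2 difference of 0.01 and the brighter *PHR2* probe set of -0.0079, with 95% CIs of -0.30 to 0.33 and -0.24 to 0.22. The brightest *PHO1-2* probe set stood at 0.09 (95% CI -0.15 to 0.32), the one open to cross-hybridisation at -0.07, and the dimmer *PHR2* probe set at 0.09. *PHO1-3* was lowest in experiment 2 in both genotypes, at 5.94 in *crl1* and 21.7 in WT, and its log2 difference was 0.47 (standard error 0.38, limma adjusted p = 0.405). Without experiment 1 it became 1.46 (adjusted p = 0.0252), and without experiment 2 it turned to -0.51 (adjusted p = 0.236).

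**Figure D3:**
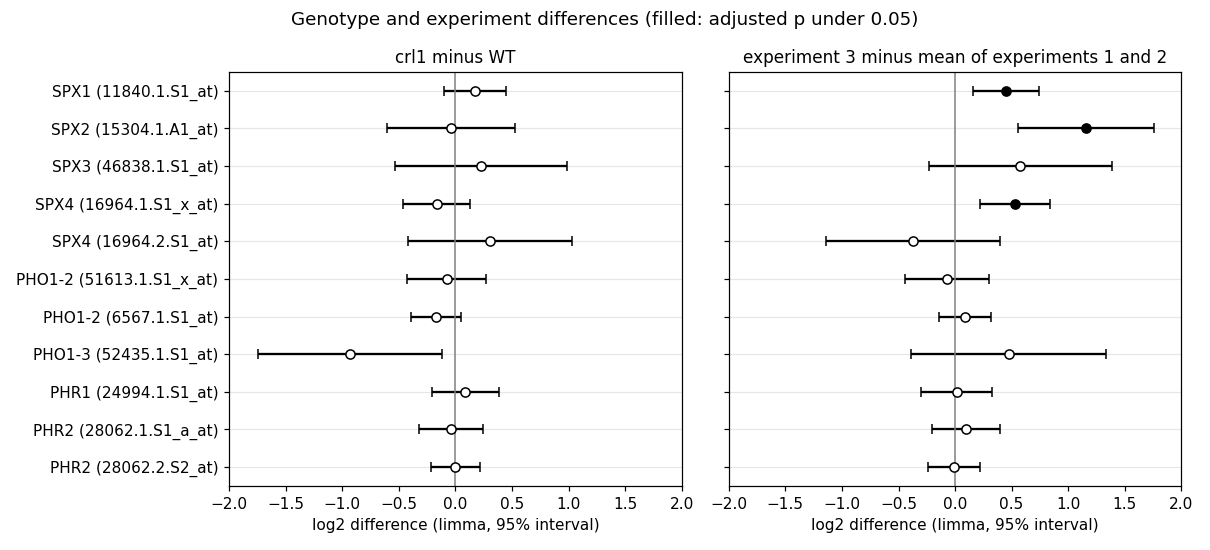
Log2 differences of the 11 tested probe sets with 95% confidence intervals from limma, *crl1* minus WT on the left and experiment 3 minus the mean of experiments 1 and 2 on the right; filled points have an adjusted p under 0.05. No point is filled for the genotype, and those of *SPX1*, *SPX2* and the brighter *SPX4* probe set are filled, at 0.45, 1.16 and 0.53, for the experiment.

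With all 3 experiments compared at once by a limma F-test, chosen after the values had been seen, *SPX2*, the brighter *SPX4* probe set and *PHO1-3* passed (adjusted p = 0.0307, 0.0218 and 0.0256). *SPX1* did not pass (F-test adjusted p = 0.0728), nor did *PHR1* (0.0757). These 3 of 11 stand beside 21.4% of all tested probe sets. The experiment took a larger share of the log2 sum of squares over the 6 arrays than the genotype for all 11 probe sets, and for 83.2% of all tested probe sets. For *SPX2* the shares were 84.0% for the experiment and 0.112% for the genotype, and for *PHO1-3* they were 66.8% and 21.0%. Medians were 66.8% and 6.41% over the 11 probe sets and 65.2% and 7.63% over all tested probe sets. The experiment has more degrees of freedom than the genotype, so a larger share for it is not by itself a sign of an effect.

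Within the families, the profile of *PHO1-3* over the 6 arrays was most like that of the brightest *PHO1-2* probe set (Pearson r of log2 signals 0.96). Both were lowest on the *crl1* array of experiment 2. With *PHO1-3*, the *PHO1-2* probe set open to cross-hybridisation had an r of 0.26 and the untested one of -0.39. The likeness thus holds for the brightest probe set of *PHO1-2* alone. *SPX1* and *SPX2* had an r of 0.76. Outside the group, among 95 tested probe sets whose gene carries a name rather than a locus number as its symbol, *CCZ1* and *AL1* were most like *SPX1* (r of 0.97 and 0.93). *MYBS2* and *CPK7* were most like *PHO1-3* (0.83 and 0.83), and *LPR1* and *CPK7* most like the brightest *PHO1-2* probe set (0.82 and 0.79). These correlations come from the same 6 arrays, share the differences between experiments, and are given as descriptions. Over all tested probe sets, 84 had an r over 0.95 with *PHO1-3*, 81 with the brightest *PHO1-2* probe set and 184 with *SPX1*.

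Other genes of phosphate uptake and use were read from a list of names. Many names on it, among them the SPX-MFS names, matched no gene of the annotation or no probe set and have no value. The study reports an SPX-domain gene as lower in *crl1*. That gene was not looked up by its locus here, so the counts do not speak for it. The list gave 17 genes with 27 probe sets. Of these, 12 genes with 14 probe sets passed the signal minimum. Between genotypes, 0 of the 14 passed the test (0 at an unadjusted p under 0.05), against the 0.651% of all probe sets given above. Their median log2 fold change was -0.02, beside 0.0034 for all. *PHT1-8*, a high-affinity phosphate transporter that PHR2 activates, had signals of 518, 317 and 460.3 in *crl1* and 388, 346 and 392 in WT through the probe set with the smaller p. Only the *crl1* array of experiment 2 was below the WT arrays (log2 fold change 0.17, 95% CI -0.09 to 0.44, limma adjusted p = 0.702). *PHT1-1*, a transporter expressed also when phosphate is sufficient, had 115, 166 and 135 in *crl1* and 111, 134 and 114 in WT through its tested probe set. These were higher in *crl1* in each pair (log2 fold change 0.20, 95% CI -0.10 to 0.50, limma adjusted p = 0.701). Its other probe set, below the signal minimum and not tested, was mixed between pairs, with ratios of 0.692, 2.51 and 0.732.

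*SIZ1*, a SUMO ligase whose Arabidopsis homologue acts in the phosphate starvation response, was lower in *crl1* in each pair without passing (203, 142 and 159 in *crl1*, 217, 179.6 and 171 in WT, log2 fold change -0.18, 95% CI -0.45 to 0.09, limma adjusted p = 0.698). *PHR3*, another PHR gene, stood at a log2 fold change of -0.25 and the transporter genes *PHT1-4* and *PHT1-2* at -0.17 and -0.32 (standard errors 0.18, 0.15 and 0.32). *PHT1-11*, the transporter known for uptake from mycorrhizal fungi, was dim on its 4 probe sets, with signals of 0.401 to 13.6 in *crl1* and 0.174 to 15.997 in WT.

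Between experiments, 2 of these 14 probe sets passed the test, 1 higher and 1 lower in experiment 3, a smaller share than the 24.3% of all tested probe sets. *PAP2*, a gene matched by this name alone, so that its place among phosphate genes is uncertain, was 1.39 times higher (log2 difference 0.47, standard error 0.12, limma adjusted p = 0.0188), with signals of 653 in *crl1* and 632 in WT of experiment 3. *SIZ2*, a relative of *SIZ1*, was lower, with 138 in *crl1* and 135 in WT of experiment 3 and 197 to 205 on the other 4 arrays (log2 difference -0.56, standard error 0.12, limma adjusted p = 0.0098). *SPX5*, a further SPX gene, had log2 differences of 0.88 and 1.04 on its 2 probe sets and *MGD3*, a galactolipid synthase gene, of 0.42, and all of them missed the threshold (limma adjusted p = 0.107, 0.055 and 0.0525).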

How the data were processed

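The authors summarised the array pictures per probe set with MAS5 in Affymetrix Expression Console and scaled each array globally to a target of 100. The deposited values are this intensity on a linear scale, with no log. The sources used here name no program version. The mean of each array, with 2% of values left out at each end, was 99.5 to 99.6. Control probe sets (123) were left out.

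Genes were paired with probe sets through an array annotation, which may be old, by gene number, and named from symbols and synonyms of a RefSeq rice annotation. Of the probe sets, 22436 have 1 gene. Names shared with genes outside phosphate homeostasis (*GRF4* under PT2 and *Glup3* under VPE1, 5 probe sets) were taken off the list of other phosphate genes after the values had been seen. No sequence of these genes was in the tables used here.

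Log2 signals with a geometric mean of at least 20 were fitted with limma (version 3.58.1, under R 4.3.3) with genotype and experiment as terms and a mean-variance trend. *crl1* was compared with WT, and experiment 3 with experiments 1 and 2, which has 2 arrays per experiment. The threshold was an adjusted p under 0.05. Since the study set each mutant array against the wild-type array of its number, the number was kept as a block. Same-numbered arrays deviated together (correlations of deviations from the genotype means 0.39, 0.451 and 0.747 for experiments 1, 2 and 3). The correlation was 0.232 for *crl1* of experiment 2 with WT of experiment 1, and 0.0596 for *crl1* of experiment 1 with WT of experiment 2. Between experiment 3 and the others it was negative, from -0.533 to -0.349. The fit was tested on simulated data, and the precision is limited by the number of arrays. Present calls and the MAS5 change p need probe-level data and were not used here.

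The genes, lists and comparisons were chosen with earlier results of these data known. Every probe set of the 8 genes is named, and of the list the up to 6 genes with the smallest p in each comparison. Likeness was the Pearson r of log2 signals, for up to 3 probe sets on the same side of 1 in all pairs. Figures were drawn with matplotlib 3.10.9. The alternatives dropped the block, the trend, the genotype term or the signal minimum, raised that minimum to 50, added a pseudocount of 16 before log2, normalized by quantiles or by the median, left out each replicate pair in turn, or used the brightest or the mean probe set of a gene, an adjusted p under 0.01 or the ratio rule. The F-test over experiments was added after the values had been seen.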

Additional observations from a re-analysis of the deposited data

How the results depend on the processing

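Between *crl1* and WT, 0 probe sets of the SPX, PHO1 and PHR genes and 0 of the other phosphate genes passed limma's test under each alternative run. Calls were few over all tested probe sets too, with 163 of 25045 as reported, 5 without the replicate block and 0 without the mean-variance trend, so that these counts of 0 say little of stability. Without the replicate block, 0 of the 11 and 730 of the 25045 had an unadjusted p under 0.05. For experiment 3 against experiments 1 and 2, the 3 calls became 1 without the mean-variance trend, which was *SPX2*, while those over all probe sets went down to 3140, against 6077 with it. At an adjusted p under 0.01 there were 0. Leaving out experiment 1 or 2 gave 2 to 4 calls, and the F-test gave 3. The call of *SPX2* held at the threshold of 0.05 in each alternative fit that tested it, with adjusted p from 0.0069 to 0.0498. With a minimum of 50 it was not tested, and 2 of the 7 probe sets left were called. The log2 fold change of *PHO1-3* between genotypes stayed negative, from -1.33 to -0.47.

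Some differences that did not pass with all arrays changed sign, and the cause was not tested. Leaving out each experiment in turn, the log2 fold change between genotypes ran from -0.318 to 0.271 for *SPX2*, from -0.178 to 0.447 for *SPX3*, from -0.173 to 0.0739 for the probe set of *PHO1-2* open to cross-hybridisation, from -0.0562 to 0.232 for *PHR1*, and from -0.132 to 0.0254 and -0.026 to 0.0152 for the dimmer and the brighter probe set of *PHR2*. That brighter probe set stood at 0.0073 without experiment 1, 0.0013 with quantile normalization and 0.0057 with median centring, and the mean of both *SPX4* probe sets at 0.0706. For experiment 3, leaving out experiment 2 or 1 gave log2 differences of -0.51 to 1.46 for *PHO1-3*, -0.269 to 0.298 for *PHR1*, -0.0219 to 0.197 for the brightest and -0.166 to 0.021 for the cross-hybridising probe set of *PHO1-2*, and -0.111 to 0.0955 for the brighter of *PHR2*. *PHR1* stood at -0.0575 with quantile normalization and -0.0309 with median centring, and means over the probe sets of a gene were 0.0783 for *SPX4*, 0.0074 for *PHO1-2* and 0.043 for *PHR2*. Without experiment 1, *PHO1-3* passed the test in this comparison (adjusted p = 0.0252).

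The probe sets of *SPX3* and *PHO1-3* and the dimmer one of *SPX4* had dim signals, and their intervals between genotypes are the widest of the 11. The part of dim signal in that width was not tested.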
